A study of Mus musculus with 6 samples.

Results

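The genes of the extracellular matrix and of its remodelling were examined in primary mouse hepatocytes treated with palmitate, from control mice and from mice with a liver-specific deletion of STING, the innate immune adaptor of the cGAS pathway. The set was chosen by gene name among the protein-coding rows of the expression table, as collagen chains (*Col*), laminin chains (*Lama*, *Lamb*, *Lamc*), matrix metalloproteinases (*Mmp*), the tissue inhibitors *Timp1* to *Timp4*, and *Fn1*, *Sparc*, *Dcn*, *Ecm1*, *Lox*, *Acta2*, *Tgfb1*, *Tgfb2* and *Tgfb3*. It holds 92 of the 57180 genes in the table. Hepatocytes were isolated from male LOXP mice, the floxed controls, and from male liver-specific STING knockout (STINGLKO) mice, whose libraries are labelled KO. STINGLKO mice were made with an Albumin-Cre transgene, which is active in hepatocytes. Whether other liver cells kept STING was not measured here. Both groups received 0.1 mM palmitic acid, a saturated fatty acid, for 24 h, in medium with dexamethasone and serum, and there was no untreated group. Each group had 3 libraries. The labels do not say whether these came from separate mice, so p-values measure the spread between libraries, which may be technical.

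The hepatic matrix is a thin one. In the space between hepatocytes and sinusoids it holds fibronectin, collagens and basement membrane proteins without a continuous basement membrane. In fibrosis, activated stellate cells lay down fibrillar collagens, and metalloproteinases and their inhibitors set how fast the matrix is broken down. Transforming growth factor β (TGF-β) is the best known signal that drives this deposition. Hepatocytes themselves secrete plasma fibronectin and collagen XVIII, the precursor of endostatin.

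Counted reads per library ran from 14726983 to 18536985. *Sting1*, the targeted gene, had 19, 16 and 23 counts in LOXP replicates 1, 2 and 3 and 24, 23 and 15 in STINGLKO, so that its groups overlapped (log2 fold change -0.08, adjusted p = 0.883). The counts cover the whole gene and do not show which exons were deleted, so the knockout could not be checked here. The paper reports, from RT-PCR of purified hepatocytes, that *Sting1* RNA was lost in cells of the knockout mice. Below, STINGLKO means the libraries labelled KO. Hepatocyte markers were abundant in every library, with *Alb* between 6468 and 7791 FPKM. Of 14 tested, 11 had an adjusted p under 0.05 and were lower in STINGLKO, or 78.6%, beside 11.6% of all genes tested. Of 15 stellate cell and fibroblast markers 8 were tested and 0 passed by edgeR or DESeq2, with 1 higher at an unadjusted p under 0.05. By edgeR, 11.6% of all genes tested were lower and 11.5% higher at an adjusted p under 0.05. The summed FPKM of the 15 markers ran from 8.86 to 10.9 in LOXP and from 9.52 to 10.6 in STINGLKO. *Thy1* was at 0 counts and *Gfap* had 1 count in all. All 10 lymphocyte, 8 neutrophil and 6 mesothelial markers had too few counts to be tested. In bulk RNA, fewer cells of a type and less RNA per cell cannot be told apart.

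The share of reads on matrix genes was lower in each STINGLKO library than in each LOXP library. The 92 genes took 0.300%, 0.329% and 0.318% of the counted reads in LOXP replicates 1, 2 and 3 and 0.239%, 0.247% and 0.246% in STINGLKO. An exact permutation test, two-sided, gave p = 0.1, and groups of 3 cannot reach a lower value. *Fn1* alone took from 43.5% to 49.8% of the reads of the set, and without it the shares were from 0.151% to 0.170% and from 0.133% to 0.139%. *Fn1*, *Col18a1*, *Lamc1*, *Col4a1*, *Mmp14* and *Col4a2* together took from 84.2% to 87.7% of the reads. FPKM, which is the count divided by gene length and by the counted reads of the library, is used below to compare levels between genes. On this scale 7 genes had a mean above 10, and 22 had a mean above 1 in at least one group. At the other end, 17 genes had no count in any library.

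Of the 92 genes, 49 had enough counts to be tested and 43 did not. Each gene was tested in a fit over all 14151 genes that passed the same filter. Adjusted p-values come from the quasi-likelihood test of edgeR, by Benjamini and Hochberg's method over those genes, and fold changes are STINGLKO against LOXP. With an adjusted p under 0.05, 11 of the 49 were lower and 4 were higher in STINGLKO. Among all genes tested, 11.6% were lower and 11.5% higher by this rule, against 22.4% and 8.16% of the 49. The lower genes described here were *Fn1*, *Col18a1*, *Col4a1*, *Col4a2*, *Col15a1*, *Col12a1*, *Col27a1*, *Mmp9*, *Mmp15* and *Mmp19*. The higher ones were *Timp1*, *Lamb3*, *Lox* and *Col11a2*. On normalised counts, the groups did not overlap for any of the 15 that passed, nor for 11 other tested genes of the set. Over all genes tested, LOXP lay entirely above STINGLKO for 20.3% and entirely below it for 20.4%, and for 17 and 9 of the 49. The median log2 fold change of the 49 was 0.01, beside -0.0021 for all genes tested. Of the 49, 41 reached the count filter in both groups, including 10 of the lower and all 4 of the higher genes. *Mmp9* passed through the LOXP libraries alone, so the filter itself favoured a lower value for it.

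**Figure D1:**
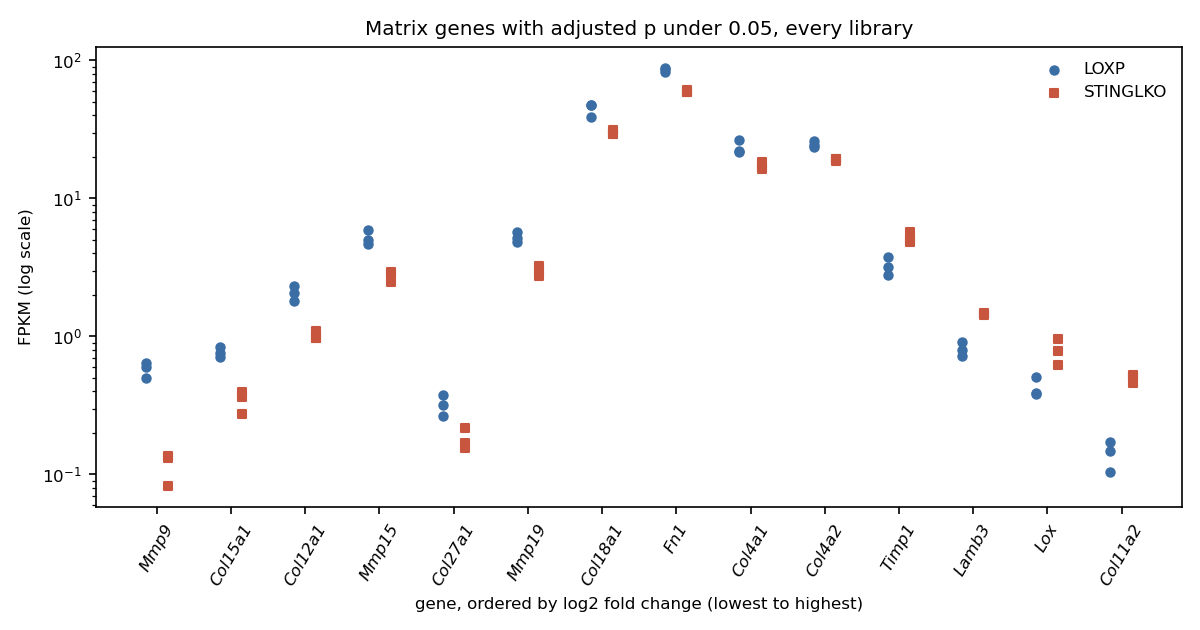
FPKM (log axis) of 14 of the matrix genes with an adjusted p under 0.05 in each of the 3 LOXP (circles) and 3 STINGLKO (squares) libraries, ordered by log2 fold change from *Mmp9* to *Col11a2*. For each gene the points of the groups lie apart.

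The study called a gene differentially expressed at an absolute log2 fold change over 1, a q-value under 0.05 and a mean FPKM over 1 in a group. By these criteria 1.49% of all genes tested were lower and 0.558% higher. *Col12a1* was the 1 matrix gene that met them, though not without LOXP replicate 1, and 0 of the 4 higher genes did. *Mmp9*, *Col15a1* and *Col11a2* also changed by more than 1 on the log2 scale but had a mean FPKM under 1 in both groups.

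**Figure D2:**
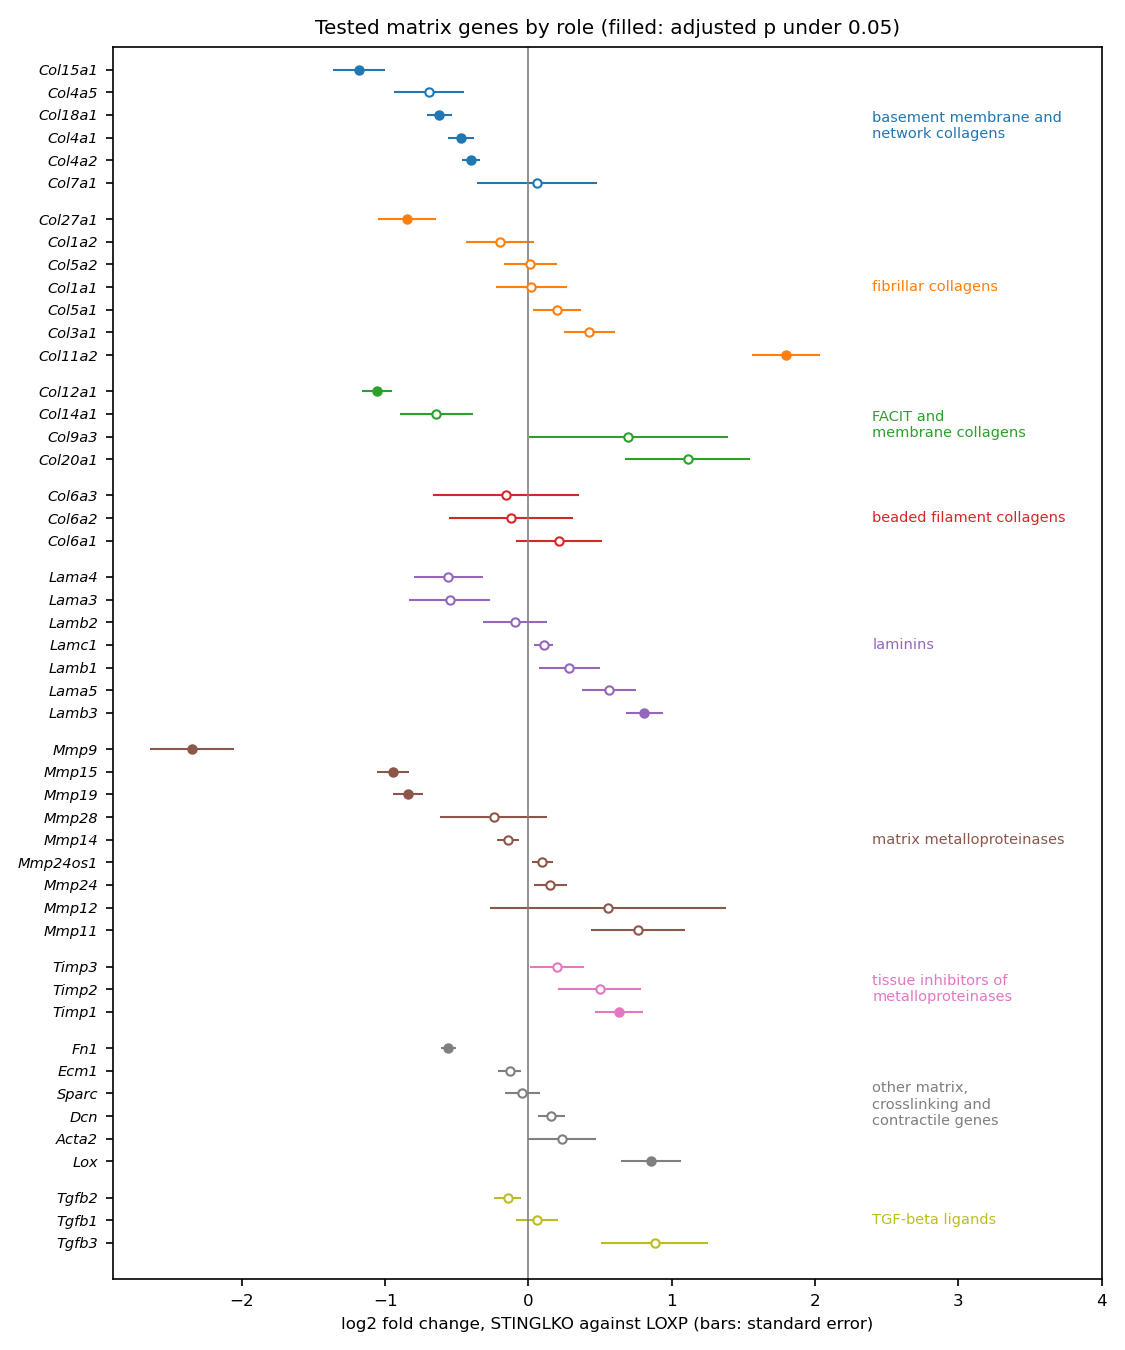
Log2 fold change, STINGLKO against LOXP, of 48 tested matrix genes, grouped by role, with the standard error of the fit as bars and filled points for an adjusted p under 0.05. The filled points among the basement membrane collagens lie left of 0, and the inhibitors of metalloproteinases lie right of it, with *Timp1* filled.

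Most tested basement membrane collagens were lower in STINGLKO. Of the 12 basement membrane and network collagens listed, 6 were tested, with a median log2 fold change of -0.55. By edgeR and by DESeq2, 4 were lower and 0 were higher (5 and 0 at an unadjusted p under 0.05). By edgeR the 4 were 66.7% of those tested. Of all genes tested, 11.6% were lower and 11.5% higher. *Col4a1* and *Col4a2* encode the chains of the most widespread collagen IV trimer, which forms the network of basement membranes. *Col4a1* had 22.0, 26.3 and 21.7 FPKM in LOXP replicates 1, 2 and 3 and 17.2, 18.3 and 16.3 in STINGLKO, and fell by 0.47 on the log2 scale (standard error 0.0923, adjusted p = 0.00830). *Col4a2* had 23.4, 26.0 and 24.2 FPKM in LOXP and 18.6, 19.2 and 19.4 in STINGLKO, and fell by 0.40 (standard error 0.0646, adjusted p = 0.00336). For both genes LOXP replicate 2 was the highest library, and every LOXP library lay above every STINGLKO library. The ratio of *Col4a1* to *Col4a2* FPKM was 0.949 ± 0.0572 in LOXP and 0.906 ± 0.0552 in STINGLKO (SD, n = 3 per group), a difference within the spread of the libraries (p = 0.5, exact permutation test, two-sided).

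This pair lies head to head on chromosome 8. The table places *Col4a1* (ENSMUSG00000031502) at 11248423 to 11362826 and *Col4a2* (ENSMUSG00000031503) at 11362805 to 11499287 (GRCm39, the build in the submitters' processing notes), so that their first bases overlap by 22. RefSeq promoter windows, which are on another build (GRCm38.p6), show the same 22 bases. The stretch around both start sites at chr8:11312801-11312830, read on the plus strand, is shown because both fallen genes start within it, with capitals for the bases that both transcripts share:
*Col4a1* and *Col4a2*: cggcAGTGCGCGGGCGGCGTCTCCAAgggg
*Col4a2* is read to the right from the first capital, and *Col4a1* to the left from the last one. The strand setting of the counting is not given in the sources used here.

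*Col18a1* (ENSMUSG00000001435), which encodes collagen XVIII, was the most abundant collagen. It had 38.7, 47.8 and 47.2 FPKM in LOXP replicates 1, 2 and 3 and 29.1, 29.1 and 31.0 in STINGLKO, and fell by 0.62 on the log2 scale (standard error 0.0873, adjusted p = 0.00175). Its gene overlaps *Slc19a1* by 8825 bases, with 31420 counts for *Col18a1* and 4778 for *Slc19a1*. *Slc19a1* was higher in STINGLKO (log2 fold change 0.74), and the part of the overlap in either value was not tested. *Col15a1*, the related collagen XV, was far less abundant, with 0.707, 0.755 and 0.844 FPKM in LOXP and 0.365, 0.398 and 0.274 in STINGLKO. It fell by 1.18 (standard error 0.184, adjusted p = 0.00282), the largest change among these collagens. The X-linked *Col4a5* had 0.371, 0.526 and 0.393 against 0.245, 0.338 and 0.227 FPKM and did not pass the test (log2 fold change -0.70, adjusted p = 0.0757), although its groups did not overlap. *Col7a1*, the anchoring fibril collagen, was under 0.11 FPKM in every library. *Col4a3* and *Col4a4* had no counts and *Col4a6* had 1, so collagen IV RNA in these libraries was that of the *Col4a1*, *Col4a2* and, at a low level, *Col4a5* chains.

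Endothelial cells also make collagens IV, XV and XVIII. Of 14 sinusoidal endothelial markers 13 were tested, of which 1, *Stab2*, was lower and 0 were higher by edgeR and DESeq2 (3 and 0 at an unadjusted p under 0.05). By edgeR the 1 was 7.69% of those tested, beside 11.6% lower and 11.5% higher of all genes tested. The summed FPKM of the markers ran from 39.0 to 43.1 in LOXP and from 36.7 to 39.8 in STINGLKO. A fold change below 0 was seen for 11 of the 13, and for 7112 of all 14151 genes tested. The part of endothelial cells in the lower collagens was not tested.

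**Figure D3:**
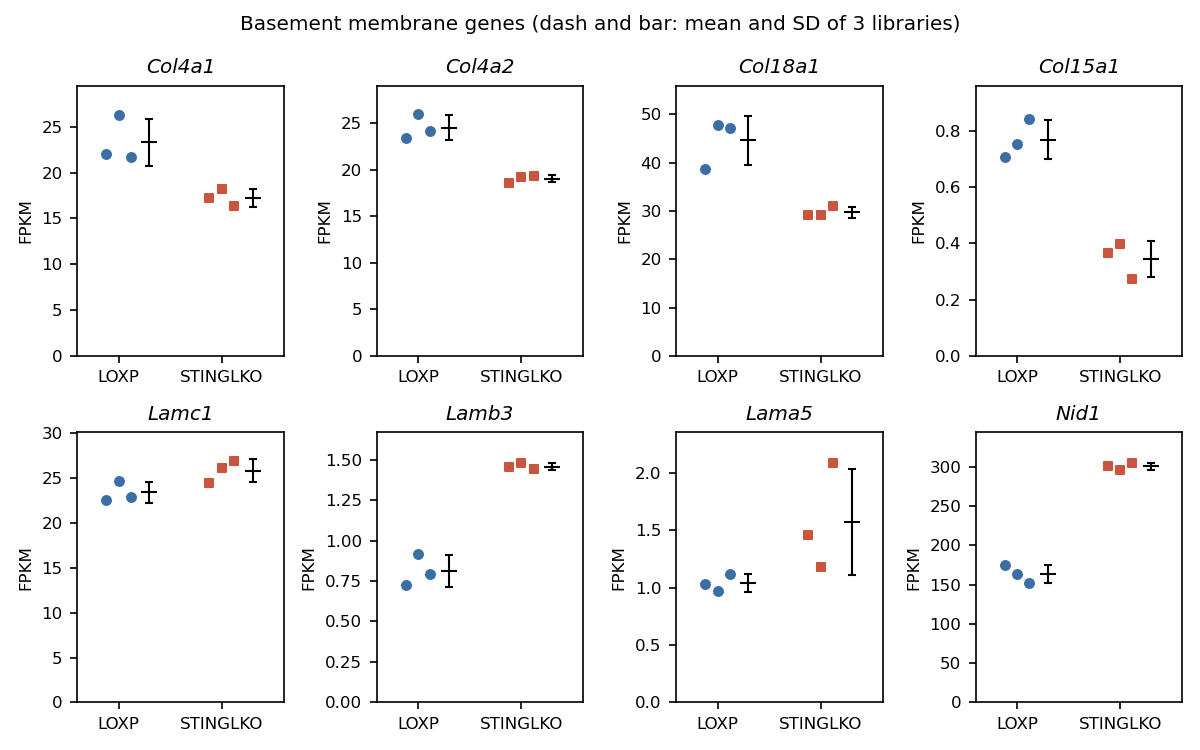
FPKM (axis from 0) of 8 basement membrane genes in each LOXP (circles) and STINGLKO (squares) library, with the mean and SD of 3 libraries beside them. *Col4a1*, *Col4a2*, *Col18a1* and *Col15a1* were lower, *Lamb3* and *Nid1* were higher, the groups of *Lamc1* overlapped, and *Lama5* did not pass the test of edgeR's quasi-likelihood fit.

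Laminins, the other network formers of basement membranes, had fold changes on both sides of 0. Of 11 chains 8 were tested, with a median log2 fold change of 0.01. *Lamb3* was the 1 that was higher by edgeR, and 1 of 2 by DESeq2. By edgeR this was 12.5% of those tested, beside 11.5% of all genes tested. *Lamc1*, the γ1 chain of most laminins, was the most abundant, with 22.6, 24.7 and 22.9 FPKM in LOXP and 24.4, 26.1 and 26.9 in STINGLKO (log2 fold change 0.11, adjusted p = 0.276). Its groups overlapped, unlike those of the collagen IV genes. *Lamb3*, the β3 chain of an epithelial laminin, had 0.726, 0.917 and 0.792 FPKM in LOXP and 1.45, 1.48 and 1.44 in STINGLKO, rising by 0.81 on the log2 scale (standard error 0.130, adjusted p = 0.00332). Every STINGLKO library lay above every LOXP library for *Lamb3*. Its partner *Lama3*, the α3 chain, did not exceed 0.129 FPKM in any library. *Lamb3* shares 42442 bases of chromosome 1 with *Hsd11b1* and 1057 with *G0s2*, whose log2 fold changes were -0.04 and -1.05. These had 7627 and 1750 counts, against 898 for *Lamb3*. The strand setting of the counting is not known, so the value of *Lamb3* is uncertain, and the part of the overlap was not tested. *Lama5*, the α5 chain, had 1.03, 0.967 and 1.12 FPKM in LOXP and 1.46, 1.18 and 2.08 in STINGLKO (log2 fold change 0.56, adjusted p = 0.0639), and it passed by DESeq2 (adjusted p = 0.0219) and edgeR's exact test (adjusted p = 0.0370). *Lama4*, *Lamb1* and *Lamb2* stayed under 0.56 FPKM in every library. *Lama3* and *Lama4* had log2 fold changes of -0.55 and -0.56 (edgeR adjusted p = 0.206 and 0.131), and every LOXP library lay above every STINGLKO library. *Lamb1* and *Lamb2* had 0.28 and -0.10 (edgeR adjusted p = 0.388 and 0.803), with groups that overlapped. Cholangiocyte markers, of an epithelial cell that makes laminins, had a summed FPKM from 125 to 146 in LOXP and from 66.7 to 78.0 in STINGLKO, most of it *Cldn4*. Of 6 tested, *Krt19* was higher and 3 were lower by edgeR, and 0 were higher and 3 lower by DESeq2. By edgeR these were 16.7% and 50%, beside 11.5% higher and 11.6% lower of all genes tested. The part of cholangiocytes was not tested.

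Nidogen-1 (*Nid1*), which ties laminin γ1 to collagen IV, was among the most abundant of 49 other matrix glycoproteins and proteoglycans, and it rose. *Nid1* had 175, 163 and 152 FPKM in LOXP and 301, 296 and 305 in STINGLKO, and its RNA rose by 0.85 on the log2 scale (standard error 0.0554, adjusted p = 5.17e-05). Relative to *Lamc1*, its FPKM was 6.99 ± 0.643 times as high in LOXP and 11.7 ± 0.553 times in STINGLKO (SD, n = 3 per group). Relative to *Col4a1*, which fell, these values were 7.05 ± 0.860 and 17.5 ± 1.22. The basement membrane proteoglycans perlecan (*Hspg2*) and agrin (*Agrn*) had log2 fold changes of 0.10 and -0.16 (adjusted p = 0.636 and 0.244). In the list as a whole, 28 genes were tested, 3 were lower and 5 were higher. These were 10.7% and 17.9%, beside 11.6% and 11.5% of all genes tested. *Fbln2*, encoding fibulin-2, which binds nidogen and fibronectin, rose by 1.11 on the log2 scale (adjusted p = 7.24e-04). *Spp1*, encoding osteopontin and also on the cholangiocyte list, fell by 2.04 (adjusted p = 3.88e-05), and *Vtn*, the plasma adhesion protein vitronectin made by hepatocytes, fell by 0.60 (adjusted p = 1.99e-04).

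Fibronectin RNA was lower in STINGLKO. *Fn1* (ENSMUSG00000026193, chromosome 1, 71624679 to 71692359) was the most abundant gene of the set. It had 82.8, 88.1 and 86.9 FPKM in LOXP replicates 1, 2 and 3 and 58.8, 61.4 and 59.2 in STINGLKO, and fell by 0.56 on the log2 scale (standard error 0.0512, adjusted p = 2.53e-04). The lowest LOXP library stood well above the highest STINGLKO library, and the spread within each group was small. Over 14 alternative settings the log2 fold change of *Fn1* ran from -0.59 to -0.51. Fibronectin is also a product that hepatocytes secrete into plasma, like *Vtn*. In the same libraries 11 of 14 hepatocyte markers were lower (78.6%, beside 11.6% of all genes tested), with a median log2 fold change of -0.45. Their part in the fall of *Fn1* was not tested.

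The other matrix and contractile genes of the set, apart from *Lox*, did not pass the test. *Ecm1*, a secreted glycoprotein, had 8.36, 8.31 and 8.44 FPKM in LOXP and 7.03, 8.22 and 8.25 in STINGLKO (log2 fold change -0.13, adjusted p = 0.289). *Sparc*, a collagen-binding protein, had 5.83, 4.35 and 6.14 against 5.05, 5.49 and 5.69 FPKM, with groups that overlapped (log2 fold change -0.04, adjusted p = 0.845). *Dcn*, the proteoglycan decorin of fibroblasts, had 2.86, 3.27 and 2.85 against 3.47, 3.43 and 3.39 FPKM, apart on this scale but not on normalised counts (log2 fold change 0.16, adjusted p = 0.247). *Acta2*, the smooth muscle actin of activated stellate cells, had 1.78, 1.41 and 1.56 against 2.0, 2.35 and 1.34 FPKM (log2 fold change 0.23, adjusted p = 0.532). The groups of *Acta2* overlapped.

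Fibrillar collagens, the main collagens of scar tissue, were all under 0.6 FPKM. Of 11 listed, 7 were tested, 1 was lower and 1 was higher, or 14.3% each, beside 11.6% and 11.5% of all genes tested. *Col1a1* had 0.290, 0.245 and 0.395 FPKM in LOXP and 0.270, 0.342 and 0.352 in STINGLKO (log2 fold change 0.02, standard error 0.246, adjusted p = 0.967), and its direction changed when single libraries were left out. *Col1a2* had 0.214, 0.134 and 0.221 against 0.195, 0.150 and 0.165 FPKM (log2 fold change -0.20, standard error 0.235, adjusted p = 0.596). The groups of both collagen I genes overlapped, at 213 and 281 counts in total over the 6 libraries. *Col3a1* had 0.358, 0.297 and 0.261 FPKM in LOXP and 0.432, 0.387 and 0.444 in STINGLKO, apart but not past the test (log2 fold change 0.42, standard error 0.179, adjusted p = 0.126). *Col5a1* and *Col5a2*, the collagen V chains that assemble with collagen I, had log2 fold changes of 0.20 and 0.01 (adjusted p = 0.443 and 0.973).

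The fibrillar collagens that passed the test were those of cartilage type. *Col27a1* had 0.264, 0.317 and 0.374 FPKM in LOXP and 0.156, 0.169 and 0.218 in STINGLKO and fell by 0.85 (standard error 0.204, adjusted p = 0.0196). *Col11a2* had 0.103, 0.171 and 0.148 FPKM in LOXP and 0.520, 0.463 and 0.526 in STINGLKO, rising by 1.80 on the log2 scale (standard error 0.235, adjusted p = 0.00127). It was the largest rise of the set, at a low level. The fall of *Col27a1* was past the threshold in neither limma-trend fit and was lost without LOXP replicate 3, STINGLKO replicate 1 or STINGLKO replicate 2, with adjusted p from 0.0519 to 0.0721. *Col5a3*, with 10, 12 and 11 counts in LOXP and 4, 4 and 3 in STINGLKO, was too low to be tested. Of the beaded filament collagen VI genes, *Col6a1* had 0.195, 0.240 and 0.331 against 0.299, 0.357 and 0.250 FPKM (log2 fold change 0.21, adjusted p = 0.660). *Col6a2* and *Col6a3* were lower still, at 63 and 86 counts in total, and their groups overlapped. *Col12a1*, which coats collagen I fibrils, was more abundant than the fibrillar and beaded filament collagens. It had 2.33, 2.05 and 1.79 FPKM in LOXP and 0.969, 0.979 and 1.09 in STINGLKO. *Col12a1* (ENSMUSG00000032332, chromosome 9, 79506273 to 79626113) fell by 1.06 on the log2 scale (standard error 0.108, adjusted p = 3.97e-04). *Col14a1*, of the same class, had 0.217, 0.270 and 0.338 against 0.163, 0.179 and 0.198 FPKM (log2 fold change -0.64, adjusted p = 0.106). *Col20a1*, also of this class, had 0.125, 0.202 and 0.140 against 0.373, 0.161 and 0.513 FPKM (log2 fold change 1.11, adjusted p = 0.106), and it passed the threshold without STINGLKO replicate 2 (adjusted p = 0.0276).

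**Figure D4:**
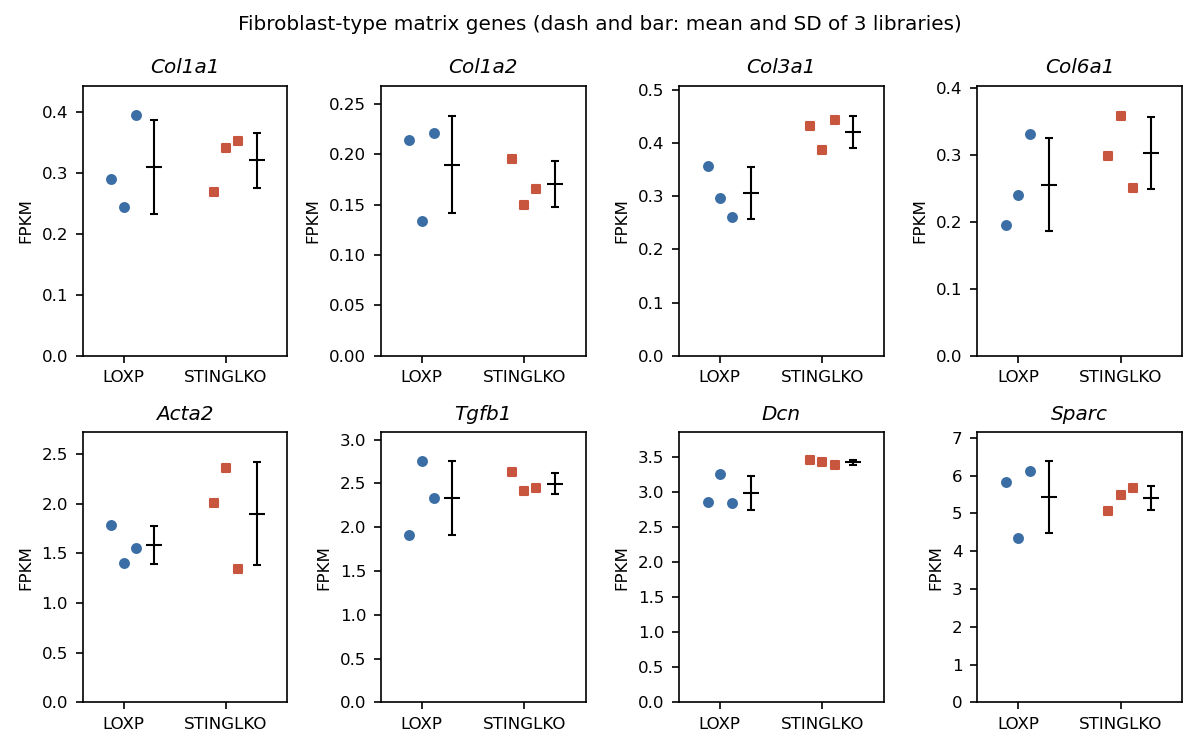
FPKM (axis from 0) of 8 matrix, contractile and growth factor genes in each LOXP (circles) and STINGLKO (squares) library, with the mean and SD of 3 libraries beside them. The collagens of these panels stayed under 0.45 FPKM, and none of the 8 genes passed the test.

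Among the genes whose products modify and crosslink collagen, *Lox* rose and *Loxl2* fell. *Lox*, encoding lysyl oxidase, which crosslinks collagen and elastin, had 0.505, 0.387 and 0.379 FPKM in LOXP and 0.960, 0.778 and 0.624 in STINGLKO, rising by 0.85 on the log2 scale (standard error 0.207, adjusted p = 0.0199). That call was lost without LOXP replicate 2 or 3 or STINGLKO replicate 1 or 2, with adjusted p from 0.0519 to 0.0673. Of 29 other genes for collagen processing and crosslinking, 21 were tested, 6 were lower and 1 was higher. These were 28.6% and 4.76%, beside 11.6% and 11.5% of all genes tested. *Loxl2*, a lysyl oxidase relative that acts on collagen IV, was more abundant than *Lox*, with 12.7, 13.5 and 12.3 FPKM in LOXP and 8.87, 8.66 and 8.89 in STINGLKO, and it fell by 0.58 (adjusted p = 7.78e-04). *P4ha2*, a subunit of the prolyl hydroxylase that stabilises the triple helix, fell by 0.60 (adjusted p = 0.00123). *Pcolce2*, an enhancer of procollagen cleavage, rose by 1.20 (adjusted p = 0.00669). *Loxl4* and the collagen chaperone *Serpinh1* had log2 fold changes of -0.08 and 0.02 (adjusted p = 0.392 and 0.963).

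Metalloproteinase genes that passed the test were all lower in STINGLKO, and the 1 inhibitor gene that passed was higher. Of 24 *Mmp* names, 9 were tested, 3 were lower and 0 were higher by edgeR and DESeq2 (3 and 1 at an unadjusted p under 0.05). By edgeR the 3 were 33.3% of those tested. Of all genes tested, 11.6% were lower and 11.5% higher. The share counts *Mmp9*, which reached the count filter through the LOXP libraries alone, so the filter favoured a lower value for it. *Mmp28* also passed the filter through LOXP alone and *Mmp12* through STINGLKO alone. The 9 tested include *Mmp24os1*, which is not an enzyme of this family. *Mmp9*, the gelatinase that cleaves collagen IV, had 0.638, 0.603 and 0.496 FPKM in LOXP and 0.131, 0.0821 and 0.136 in STINGLKO. Its counts were 40, 35 and 30 and 8, 6 and 9, with 0.579 ± 0.0740 FPKM in LOXP and 0.116 ± 0.0297 in STINGLKO (SD, n = 3 per group). *Mmp9* (ENSMUSG00000017737, chromosome 2, 164782700 to 164797770) fell by 2.35 on the log2 scale (standard error 0.295, adjusted p = 0.00108), the largest change of the set. Without a single library its log2 fold change lay between -2.47 and -2.14, and under limma-trend on log2(FPKM + 1), which compresses low values, it was -0.50. Macrophages and neutrophils also make *Mmp9*. Of 8 neutrophil markers 4 had no counts, *Ly6g* and *Mpo* among them, and the summed FPKM was from 0.0355 to 0.721 in LOXP, highest in replicate 2, and from 0.0293 to 0.0701 in STINGLKO. Among 14 marker genes of macrophages and Kupffer cells, 13 of which were tested, *Cd68* and *Mpeg1* were lower and 0 were higher (2 and 1 at an unadjusted p under 0.05 and by DESeq2). By edgeR the 2 were 15.4% of those tested, beside 11.6% lower and 11.5% higher of all genes tested. The summed FPKM of the 14 markers was from 66.8 to 83.9 in LOXP and from 53.4 to 63.2 in STINGLKO. *Cd68* made up the most of it, and the part of these cells in the lower *Mmp9* was not tested.

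*Mmp15*, a membrane-anchored metalloproteinase, had 4.96, 4.66 and 5.85 FPKM in LOXP and 2.46, 2.84 and 2.94 in STINGLKO and fell by 0.94 (standard error 0.113, adjusted p = 8.40e-04). *Mmp19*, a secreted enzyme with basement membrane substrates, had 5.14, 4.82 and 5.75 FPKM in LOXP and 2.76, 3.23 and 2.97 in STINGLKO and fell by 0.84 (standard error 0.104, adjusted p = 9.54e-04). Both passed the test under each of 14 alternative settings. *Mmp14*, the membrane-anchored collagenase and the most abundant metalloproteinase proper, had 17.9, 21.4 and 20.3 FPKM in LOXP and 18.4, 17.7 and 19.3 in STINGLKO, with overlapping groups (log2 fold change -0.14, adjusted p = 0.232). Without LOXP replicate 1, its lowest LOXP library, *Mmp14* had an adjusted p of 0.0404. *Mmp24*, another membrane-anchored enzyme, had a log2 fold change of 0.15 (adjusted p = 0.392). *Mmp24os1*, which the name rule also took, is the neighbouring opposite-strand gene rather than an enzyme of this family. It had 25.1, 26.3 and 28.2 against 28.9, 30.1 and 28.3 FPKM (log2 fold change 0.10, adjusted p = 0.398), and the table shows it sharing 637 bases with *Mmp24*. *Mmp11* lies across *Chchd10*, which had 32898 counts against 177 for *Mmp11*, so its own value is uncertain.

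The metalloproteinase genes of chromosome 9 had few counts. *Mmp1a*, *Mmp1b*, *Mmp7*, *Mmp10* and *Mmp20* had no counts. *Mmp13*, the main interstitial collagenase of the mouse, had 1, 97 and 0 counts in LOXP replicates 1, 2 and 3 and 0, 4 and 3 in STINGLKO, so nearly all of its RNA came from LOXP replicate 2. *Mmp12*, the macrophage elastase, had 9, 64 and 2 counts in LOXP and 51, 45 and 31 in STINGLKO, again with LOXP replicate 2 highest (log2 fold change 0.55, adjusted p = 0.678). In that library 7 of the 14 macrophage and Kupffer cell markers were at their lowest of the 6 libraries and 3 at their highest. Their summed FPKM there was 66.8, the lowest of LOXP and above the 63.2 of the highest STINGLKO library. *Mmp3* had 2, 4 and 3 counts in LOXP and 6, 14 and 13 in STINGLKO, and *Mmp8* had 7, 2 and 4 and 0, 0 and 0. The groups of both lay apart, in opposite directions, at counts too low to be tested. *Mmp2* on chromosome 8, the gelatinase of stellate cells, had 9, 2 and 6 and 7, 4 and 3 counts. These genes are named after their values were seen.

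**Figure D5:**
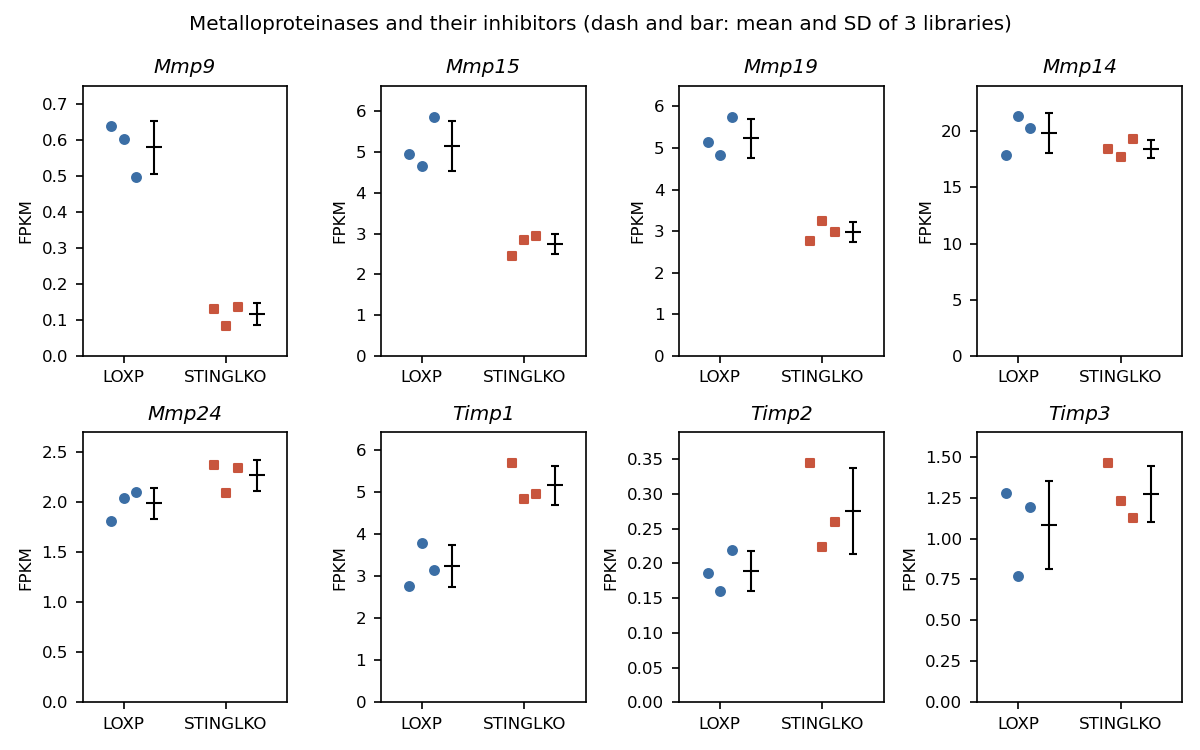
FPKM (axis from 0) of 5 metalloproteinases and 3 of their inhibitors in each LOXP (circles) and STINGLKO (squares) library, with the mean and SD of 3 libraries beside them. *Mmp9*, *Mmp15* and *Mmp19* were lower and *Timp1* was higher in STINGLKO, with groups apart.

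*Timp1*, a soluble inhibitor of most metalloproteinases and a usual marker of fibrotic liver, had 2.77, 3.78 and 3.16 FPKM in LOXP and 5.68, 4.83 and 4.95 in STINGLKO. *Timp1* (ENSMUSG00000001131, chromosome X, 20736405 to 20740974) rose by 0.63 on the log2 scale (standard error 0.167, adjusted p = 0.0276). Its adjusted p was above 0.05 without any one library other than LOXP replicate 2 and with the replicate number as a block, from 0.0525 to 0.0892, while the direction was kept. *Timp1* lies within *Syn1*, which had 38 counts in all. *Timp3*, the matrix-bound inhibitor, had 1.28, 0.774 and 1.19 against 1.46, 1.23 and 1.13 FPKM (log2 fold change 0.20, adjusted p = 0.493), and *Timp2* had 0.187, 0.161 and 0.219 against 0.344, 0.224 and 0.259 (log2 fold change 0.50, adjusted p = 0.257). All 3 inhibitors that were tested had fold changes above 0, of which that of *Timp1* passed the test. Of all 14151 genes tested, 7039 had a fold change above 0, and 11.5% were higher at an adjusted p under 0.05. *Timp4* had no counts.

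Among 30 other matrix proteases and their inhibitors 24 were tested, 7 were lower and 4 were higher. These were 29.2% and 16.7%, beside 11.6% and 11.5% of all genes tested. *Plaur*, the receptor that holds urokinase at the cell surface, rose by 1.05 on the log2 scale, from 22.0, 24.0 and 23.6 FPKM in LOXP to 44.8, 53.1 and 49.9 in STINGLKO (adjusted p = 8.81e-05). *Adam8*, a membrane protease, rose by 1.12 (adjusted p = 7.04e-04). *Serpinf2*, the plasmin inhibitor of plasma, fell by 0.70 (adjusted p = 5.61e-04), and *Bsg*, a surface protein known to induce metalloproteinases, fell by 0.54 (adjusted p = 8.40e-04).

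Of the 3 TGF-β ligand genes 0 passed the test by edgeR or DESeq2, and 1 was higher at an unadjusted p under 0.05. *Tgfb1* had 1.91, 2.76 and 2.33 FPKM in LOXP and 2.63, 2.41 and 2.45 in STINGLKO (log2 fold change 0.06, standard error 0.145, adjusted p = 0.802). *Tgfb2* had 1.89, 1.97 and 1.77 against 1.72, 1.73 and 1.77 FPKM (log2 fold change -0.15, standard error 0.0908, adjusted p = 0.291). *Tgfb3* had 0.260, 0.100 and 0.328 against 0.457, 0.415 and 0.440 FPKM (log2 fold change 0.88, standard error 0.374, adjusted p = 0.129), and its gene overlaps *Ttll5*. The groups of *Tgfb1* overlapped, and those of *Tgfb2* and *Tgfb3* lay apart in opposite directions. Of 42 genes for receptors, mediators, related ligands and targets of this family 39 were tested, 6 were lower and 3 were higher. These were 15.4% and 7.69%, beside 11.6% and 11.5% of all genes tested. *Inhba*, encoding the activin A subunit, fell by 0.94 (adjusted p = 2.91e-04), and *Acvr1b*, an activin receptor, fell by 0.48 (adjusted p = 0.00320). *Smad2*, encoding a mediator of TGF-β and activin signals, rose by 0.32 (adjusted p = 0.0162), and *Bmp6* rose by 1.04 (adjusted p = 0.0177). The call of *Smad2* was lost without LOXP replicate 2 or STINGLKO replicate 2 (adjusted p up to 0.0689), and that of *Bmp6* without LOXP replicate 3 or STINGLKO replicate 2 or 3 (adjusted p up to 0.0623). The TGF-β receptor genes *Tgfbr1* and *Tgfbr2* had log2 fold changes of -0.26 and 0.04 (adjusted p = 0.130 and 0.785). *Ccn2*, a well known target of this pathway, was at 131, 76.5 and 114 FPKM in LOXP and 165, 150.2 and 157 in STINGLKO and rose by 0.52 (adjusted p = 0.0429). It is named after its values were seen.

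Of 28 receptors for the matrix 22 were tested, and 4 were lower and 4 were higher, or 18.2% each, beside 11.6% and 11.5% of all genes tested. *Itga2*, the collagen-binding integrin α2, fell by 1.69 (adjusted p = 0.0111), from 1.53, 3.65 and 1.48 FPKM in LOXP, where replicate 2 was the highest, to 0.784, 0.664 and 0.666 in STINGLKO. *Sdc1*, the main heparan sulfate proteoglycan of the hepatocyte surface, fell by 0.51 (adjusted p = 3.05e-04). *Itgb6*, whose integrin binds fibronectin and activates TGF-β, rose by 1.19 (adjusted p = 0.00149). *Itga3*, a laminin receptor chain, rose by 0.18 (adjusted p = 0.0172), a call lost with edgeR's exact test and without any 1 STINGLKO library (adjusted p up to 0.0671). The common β1 chain, *Itgb1*, had a log2 fold change of 0.00417 (adjusted p = 0.965).

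Together the 5 lists of related genes held 178 genes, of which 134 were tested, with a median log2 fold change of -0.07. Of these, 26 were lower and 17 higher, or 19.4% and 12.7%, beside 11.6% and 11.5% of all genes tested. Without STINGLKO replicate 2 the number higher was 7. In the matrix set itself, the within-group SD of log2 normalised counts (CPM) had a median of 0.196 over the 49 tested genes, beside 0.134 over all genes tested. The median level of the 49 was 0.482 FPKM, beside 3.93 for all genes tested, so most of these genes were measured on few reads. LOXP replicate 2 was the highest library for 13 of the 49, LOXP replicate 3 for 10, LOXP replicate 1 for 5 and each STINGLKO library for 7. Over all genes tested, LOXP replicates 1, 2 and 3 were highest for 18.8%, 16.9% and 17.6%, and STINGLKO replicates for 15.8%, 16.6% and 14.3%. Of the 11 lower genes the highest library was LOXP replicate 1 for 3, replicate 2 for 4 and replicate 3 for 4. These genes were picked as lower in STINGLKO, so this ranking does not measure what each LOXP library adds to a fall. Without LOXP replicate 2, in which *Mmp13* stood apart, 11 genes of the set were lower and 4 were higher.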

How the data were processed

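RNA of 6 libraries, 3 LOXP and 3 STINGLKO, was analysed from 1 deposited table. Per the paper's methods and the submitters' processing notes, the authors' tools and build included HISAT2, fastp, StringTie, edgeR and GRCm39. The annotation, counting tool and strand setting are not given in the sources used here. The deposited counts are whole numbers without normalization. The deposited FPKM values are counts scaled by the authors to gene length and library total. The columns pair with samples by title. Replicates differed by more than counting noise (ratio of chi-square to its degrees of freedom, 7.20 to 15.4).

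The tests were run with edgeR 4.0.16 in R 4.3.3, after filterByExpr (minimum count 10) and TMM scaling (factors from 0.973 to 1.02), as quasi-likelihood tests adjusted over 14151 genes by Benjamini and Hochberg's method. The standard error of a fold change is its size divided by the square root of the F statistic. Single values were compared by exact permutation tests. Each gene list was read by symbol among protein-coding rows. The fit was first tested on counts simulated with set fold changes. Overlap of groups was judged on TMM-scaled CPM. Alternatives were DESeq2 1.42.0, upper-quartile factors, edgeR's exact test, no filter, at least 10 counts in every library, a replicate block, limma-trend (limma 3.58.1) on log2(FPKM + 1) and log2(FPKM + 0.1), and each library left out.

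Genes named were those of the set with an adjusted p under 0.05, the 10 most abundant, 8 fibrosis markers of the study, the 2 most abundant of each role, and up to 2 per direction and related list. Some results are not reported here. Other names are context, chosen after their values were seen. The members and lists were chosen with earlier results of these data known. RefSeq promoter windows matched 67 of the 92 genes and 9 of the 15 that passed the test. Figures were drawn with matplotlib 3.10.9.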

Additional observations from a re-analysis of the deposited data

How the results depend on the processing

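Of the 15 matrix genes with an adjusted p under 0.05, 10 passed it under all 14 alternatives, and *Timp1*, *Lox* and *Col27a1* were among those that did not. *Mmp9* passed in each of 13 and was not tested where at least 10 counts were required in every library. DESeq2 and edgeR's exact test each gave 5 higher, adding *Lama5*. Over leave-one-out fits, from 10 to 13 genes of the set were lower and from 2 to 4 higher, with 2 higher without LOXP replicate 3. By the study's criteria from 0 to 1 were lower (0 without LOXP replicate 1) and 0 higher, and limma-trend gave 0 lower with either pseudocount, 1 or 0.1, on the FPKM values. In the related lists, leave-one-out gave from 18 to 26 lower and from 7 to 17 higher, with 10, 9, 7 and 10 higher without LOXP replicate 3 or STINGLKO replicate 1, 2 or 3. By the study's criteria these were from 2 to 3 lower and from 4 to 6 higher, and limma-trend on log2(FPKM + 1) gave 1 lower and 1 higher. The log2 pseudocount of 1 compresses low values, and other causes were not tested.

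Log2 fold changes near 0 turned direction when 1 library was left out. They ran from -0.35 to 0.24 for *Col6a2* (above 0 without LOXP replicate 3 or STINGLKO replicate 2), from -0.092 to 0.18 for *Col5a2* (below 0 without LOXP replicate 1 or 3), from -0.11 to 0.23 for *Col1a1* (below 0 without LOXP replicate 1 or 2 or STINGLKO replicate 2 or 3), from -0.17 to 0.051 for *Sparc* (above 0 without LOXP replicate 1 or 3 or STINGLKO replicate 1) and from -0.074 to 0.21 for *Tgfb1* (below 0 without LOXP replicate 1). *Sparc* was also 0.0037 and 0.0064 in the limma-trend fits with a pseudocount of 1 and 0.1.

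Libraries with the same replicate number had weak, positive correlations of deviations (0.132, 0.0729 and 0.0257). Between groups, libraries with different numbers ran from -0.115 (LOXP replicate 1 and STINGLKO replicate 2) to 0.0406 (LOXP replicate 3 and STINGLKO replicate 2). The labels do not name pairs, so the main fit did not take the numbers as pairs. With the replicate number as a block, 12 genes of the set were lower and 4 higher, and *Timp1* had an adjusted p of 0.0525. Many genes of the set were low: 27 of the 49 tested genes had a mean FPKM under 1 in both groups, and 43 were not tested.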

Other observations

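Genes within 100 kb of the 15 matrix genes that passed the test were looked at after the values of the set were seen. The 68 such neighbours tested were counted once per matrix gene. *Col4a1* and *Col4a2*, both lower and among the 15 themselves, each counted as a neighbour of the other. Of the 68, 21 had an adjusted p under 0.05, beside 23.1% of all genes tested. With this pair included, 15 of the 21 went the way of the matrix gene. None of those near *Col18a1* (1), *Lamb3* (2) and *Fn1* (1) did. The 2 genes with the most neighbours going the same way are given. Within 100 kb of *Col27a1*, 7 other genes were tested, and *Ambp*, *Orm1*, *Orm2* and *Orm3*, plasma proteins of the liver of which the *Orm* genes are acute phase genes, fell by 0.77, 0.64, 2.32 and 2.05 in log2 units, with edgeR adjusted p-values of 1.63e-04, 3.80e-04, 1.33e-06 and 2.42e-04, while *Whrn* was higher. The *Orm* genes are close copies of each other between which reads can be split, so the value of each is uncertain. Within 100 kb of *Col11a2*, in the major histocompatibility complex, 13 other genes were tested and 4 were higher, namely *Brd2* (log2 fold change 0.58), *Wdr46* (0.43), *Slc39a7* (0.27) and *Vps52* (0.25), with edgeR adjusted p-values of 5.16e-04, 0.00637, 0.0392 and 0.0345.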
